A study of Mus musculus with 4 samples.

Results

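The glycogen metabolism enzymes described here are 8 genes, Gys1, Gbe1, Pygl, Pygb, Pgm1, Pgm2, Ugp2 and Stbd1, chosen by their symbols among the 17921 genes of the deposited expression table. All 8 were in the table, and all 8 passed the filter on low counts. RNA sequencing was done on mouse Th17 cells, a helper T cell subset named for its cytokine interleukin 17. The cells came from 2 mice labelled PRAK KO (libraries KO 1 and KO 2), and 2 wild-type mice (WT; libraries WT 1 and WT 2). For both genotypes naive CD4+ T cells were the starting population, and all were polarised towards Th17 in vitro over 72 h. PRAK is a protein kinase downstream of p38, encoded by Mapkapk5. Every culture was collected whole on day 3, with 1 library per mouse. The sources used here do not state which part of the gene was deleted, or the strain and age of the mice.

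Glycogen is the branched store of glucose that cells draw on when glucose is short. To build it, glucose 6-phosphate is turned into glucose 1-phosphate by phosphoglucomutase and then into UDP-glucose by UDP-glucose pyrophosphorylase; glycogen synthase adds these units to a chain and the branching enzyme adds the branch points. Glycogen phosphorylase releases the units again as glucose 1-phosphate. Subunits that bring protein phosphatase 1 to glycogen switch the synthase on and the phosphorylase off. T cells are not a classical glycogen-storing tissue, but they express the same enzymes.

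In PRAK KO cells 5 of the 8 genes fell, Gbe1 most of all with a 16.1-fold lower level, and none rose. The genes that fell were the phosphoglucomutase gene Pgm2, the synthase gene Gys1, the branching enzyme gene Gbe1, the phosphorylase gene Pygl and the glycogen-binding protein gene Stbd1. The other 3, the second phosphorylase gene Pygb, the pyrophosphorylase gene Ugp2 and the mutase gene Pgm1, did not pass the test. Of the 5 that fell, Stbd1 passed the filter on low counts through the WT libraries alone, so it could be tested only because of its WT level. A gene is called here when its adjusted p is under 0.05 (edgeR quasi-likelihood test, Benjamini-Hochberg adjustment over the 12680 genes tested), and log2 fold changes are KO over WT. Of all genes tested, 13.4% were called, 8.23% lower in KO and 5.14% higher. Values of the 2 genotypes did not overlap for 7 of the 8 genes, against 63% of all genes tested. The median log2 fold change was -1.80 over the 8 genes and 0.02 over all genes tested. Among the 8, edgeR called 0 higher, DESeq2 called 0 higher, and 0 were higher at an unadjusted p under 0.05. The number called lower depended on which library was left out, as it did over all genes tested. The log2 fold change stayed negative in each of these fits for every member except Pgm1. Because the members were chosen with earlier results of these data known, no test was made over the group.

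**Figure D1:**
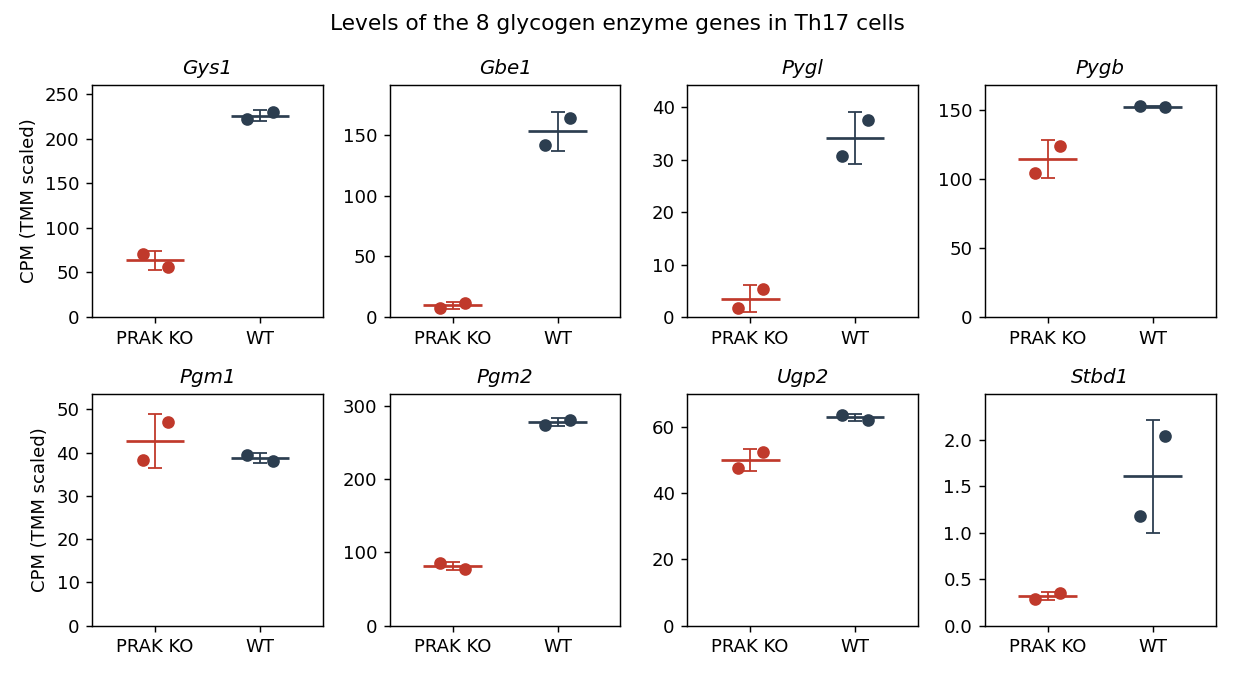
Level of each gene in CPM (counts relative to library size, scaled by TMM factors; linear axes from 0) in the 2 PRAK KO and the 2 WT libraries; points are libraries, the long line is the mean and the bar is the SD. The KO points lie below both WT points in 7 of the 8 genes, and the groups overlap only for Pgm1.

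Total counts per library lay between 19418012 and 20125124. The 2 KO libraries were less alike than the 2 WT libraries (Pearson r across genes of 0.974 against 0.992 on log2 CPM), so the KO values of each member are given by library. Mapkapk5 itself measured 20.04 CPM in KO 1 and 21.6 CPM in KO 2, against 35.6 in WT 1 and 38.4 in WT 2 (log2 fold change -0.83, adjusted p = 0.0194 in edgeR). The gene was therefore lower, not absent, in the libraries labelled KO, and its call was lost without WT 1 (adjusted p = 0.0918) or WT 2 (0.169). T cell identity was checked on 10 markers of T and Th17 cells, all of which were detected and 8 of which did not pass the test. Il23r fell (-1.77) and Ccr6 rose (1.12). The 10 markers summed to 4042 CPM in KO 1 and 2932 in KO 2, against 4569 in WT 1 and 4434 in WT 2. Markers of myeloid cells were higher in KO, 7 of 12 tested passing the test, and their summed level was 160.1 CPM in KO 1 and 341 in KO 2, against 63.4 in WT 1 and 88.6 in WT 2. Of the 14 myeloid markers listed, 0 were at 0 in every library. B cell markers summed to 71.8 and 68.2 CPM in KO against 18.7 and 50.7 in WT (1 of 4 tested higher), and CD8 T and NK cell markers to 858 and 478 CPM in KO against 163 and 308 in WT (1 of 4 tested higher). Erythroid markers summed to at most 2.49 CPM in KO and 7.01 in WT, and neither of the 2 tested passed. In bulk samples fewer cells of a type and less RNA per cell cannot be told apart, and the part of these other cells in the results below was not tested.

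The symbols of the mutases need care. The table uses an older mouse nomenclature in which Pgm2 is gene ID 72157 and Pgm1 is gene ID 66681. RefSeq's annotation of GRCm38.p6 gives these names the other way round, calling gene 72157 Pgm1 and gene 66681 Pgm2. Gene 72157 is thus the mouse counterpart of human PGM1, the main phosphoglucomutase, and gene 66681 that of human PGM2, an enzyme known chiefly as a phosphopentomutase. The table's symbols are kept here. Coordinates are those of RefSeq for GRCm38.p6, matched by gene ID.

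The stretches of sequence before 4 of the genes are shown because these genes span the outcome: the deepest fall (Gbe1), a phosphorylase and a mutase that fell (Pygl, Pgm2) and a gene that did not pass the test (Ugp2). Each is the 250 bases up to the transcript start, from the RefSeq promoter table of GRCm38.p6, 5′ to 3′ on the gene's strand; for Ugp2, which has 2 windows in that table, the one farther upstream is shown. Capitals mark ACGTG or GCGTG on either strand (read as CACGT or CACGC on the opposite one), the core letters bound by hypoxia-inducible factors; ACGTG also lies inside the E-box CACGTG.
Gbe1, chr16:70313699-70313948, plus strand: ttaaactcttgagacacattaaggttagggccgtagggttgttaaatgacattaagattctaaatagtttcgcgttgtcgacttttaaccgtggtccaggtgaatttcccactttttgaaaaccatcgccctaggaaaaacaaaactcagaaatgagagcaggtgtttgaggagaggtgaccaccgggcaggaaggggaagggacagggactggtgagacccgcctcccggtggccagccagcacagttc
Pygl, chr12:70227684-70227933, minus strand: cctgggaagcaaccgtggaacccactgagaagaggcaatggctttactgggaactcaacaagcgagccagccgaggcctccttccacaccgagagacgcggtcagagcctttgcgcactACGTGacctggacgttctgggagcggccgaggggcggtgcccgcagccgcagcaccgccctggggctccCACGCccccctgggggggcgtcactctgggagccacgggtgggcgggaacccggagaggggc
Pgm2, chr4:99929201-99929450, plus strand: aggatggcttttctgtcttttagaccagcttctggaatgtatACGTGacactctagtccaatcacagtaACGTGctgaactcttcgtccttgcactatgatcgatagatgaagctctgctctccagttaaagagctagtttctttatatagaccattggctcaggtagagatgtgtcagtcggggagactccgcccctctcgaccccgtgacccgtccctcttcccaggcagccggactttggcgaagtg
Ugp2, chr11:21371268-21371517, minus strand: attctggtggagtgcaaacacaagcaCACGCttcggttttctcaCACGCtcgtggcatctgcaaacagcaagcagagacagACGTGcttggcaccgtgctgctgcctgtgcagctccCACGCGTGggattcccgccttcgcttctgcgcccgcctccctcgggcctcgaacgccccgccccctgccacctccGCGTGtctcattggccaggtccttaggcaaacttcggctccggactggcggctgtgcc

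Matches were counted in the full windows of 300 bases, which run from 250 bases before the start to 50 after it. All 8 genes were found in the table by gene ID. The letters occurred in 3 of the 5 genes that fell (Pygl, Pgm2 and Stbd1) and in all 3 that did not pass, against 43.8% of all 32851 windows. A gene counted if any of its windows held a match, whereas that share is per window. Ugp2 held 6 matches in the window shown, 2 of them overlapping, and 0 in its other window. None was found for Gbe1 or Gys1. In Pgm2 the matches began 208 and 181 bases before the start, and in Pygl 131 and 62 bases before it. A match is only a run of letters and does not show a bound site, and its absence here covers this window alone.

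The values that follow are RNA levels, and they do not measure protein, enzyme activity or glycogen. On the substrate side of the pathway, the 2 mutase genes differed. Pgm2 (gene 72157, chromosome 4, 99929451 to 99987294), the mutase that links glucose 6-phosphate to glucose 1-phosphate, had 85.0 CPM in KO 1 and 77.3 in KO 2, against 274 in WT 1 and 282 in WT 2. Each WT library had over 3 times the level of either KO library, and each genotype's libraries were close to each other. On the log2 scale the change was -1.77 ± 0.12 (SE; adjusted p = 0.00242, edgeR), a 3.42-fold lower level.

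Pgm1 (gene 66681, chromosome 5, 64092919 to 64128355) had 38.3 CPM in KO 1 and 47.2 in KO 2, against 39.5 in WT 1 and 38.0 in WT 2. Here the groups overlapped: KO 1 lay between the WT libraries and KO 2 above them. The change was 0.14 ± 0.14 on the log2 scale (adjusted p = 0.544, edgeR; 95% interval before adjustment -0.22 to 0.50), and its sign turned to -0.022 without KO 2. Ugp2 (chromosome 11, 21321126 to 21371267), which makes UDP-glucose, had 47.6 CPM in KO 1 and 52.4 in KO 2, against 63.7 in WT 1 and 62.2 in WT 2. Both KO values lay below both WT values, but by little (-0.33 ± 0.12, adjusted p = 0.121, edgeR; interval before adjustment -0.62 to -0.04). Its annotation overlaps the end of Vps54 by a few bases. The change of Ugp2 was -0.26 without KO 1 and -0.41 without KO 2.

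The synthase gene and the branching enzyme gene both fell. Gys1 (chromosome 7, 45434839 to 45456617), the glycogen synthase expressed outside the liver, had 70.8 CPM in KO 1 and 56.0 in KO 2, against 222 in WT 1 and 230.3 in WT 2. No library crossed to the other group. The log2 fold change came to -1.83 ± 0.15 (SE; adjusted p = 0.00415, edgeR), a 3.56-fold lower level. Gys1 overlaps Ruvbl2 at its 5′ end, and without strand information reads there cannot be told apart; Ruvbl2 itself had 155 CPM in KO 1 and 104 in KO 2, against 143 in each WT library (-0.14, adjusted p = 0.67, edgeR). Gys2, the liver synthase, had 0 counts in 3 libraries and 1 count in WT 2, so nearly all synthase reads came from Gys1. A count of 0 allows a level of up to about 0.15 CPM at these depths (3 counts, counting error only).

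Gbe1 (chromosome 16, 70313949 to 70569720), the branching enzyme, whose loss in people causes a glycogen storage disease, had 7.36 CPM in KO 1 and 11.6 in KO 2, against 142 in WT 1 and 164 in WT 2. The separation was wider than for any other of the 8 genes. Its fitted change was -4.01 ± 0.25 on the log2 scale (SE; adjusted p = 0.00222, edgeR), a 16.1-fold lower level. Leaving out any 1 library moved it between -4.38 and -3.72, and each of these passed the test. The deposited TPM, which allow levels of different genes to be compared per length, showed the unequal fall: Gbe1 stood at 0.128 times Gys1 in KO 1 and 0.257 times in KO 2, against 0.790 times in WT 1 and 0.880 times in WT 2. With 2 libraries per genotype an exact permutation test (two-sided) cannot give a p below 0.333, which is what this ratio gave.

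On the breakdown side, the phosphorylase genes behaved differently. Pygl (chromosome 12, 70190815 to 70227683), the phosphorylase named for liver, had 1.65 CPM in KO 1 and 5.27 in KO 2, against 30.7 in WT 1 and 37.6 in WT 2. The KO libraries differed 3.20-fold from each other, and both stayed well below WT. The log2 fold change of Pygl was -3.30 ± 0.50 (SE; adjusted p = 0.0169, edgeR). Leaving out KO 1 gave -2.70 and leaving out KO 2 gave -4.37, both past the threshold, while the call was lost on leaving out WT 1 (adjusted p = 0.0557) or WT 2 (0.0514).

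Pygb (chromosome 2, 150786796 to 150831748), the phosphorylase named for brain, had 105 CPM in KO 1 and 124 in KO 2, against 153 in WT 1 and 152 in WT 2. Its KO values were lower than both WT values but did not pass the test (-0.41 ± 0.13, adjusted p = 0.0919, edgeR; interval before adjustment -0.73 to -0.10). The change of Pygb was -0.30 without KO 1 and -0.55 without KO 2. Pygm, the muscle phosphorylase, was low in every library and its change was -0.22 (adjusted p = 0.662, edgeR). Per length, Pygl made up 2.05% of the summed TPM of the 3 phosphorylase genes in KO 1 and 5.34% in KO 2, against 21.1% in WT 1 and 24.8% in WT 2. Pygb supplied the larger part throughout, 93.8% ± 2.28 in KO and 75.3% ± 2.61 in WT (SD, n = 2 each). Summed phosphorylase TPM was 57.2 in KO 1 and 65.7 in KO 2, against 94.9 in WT 1 and 95.9 in WT 2.

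**Figure D2:**
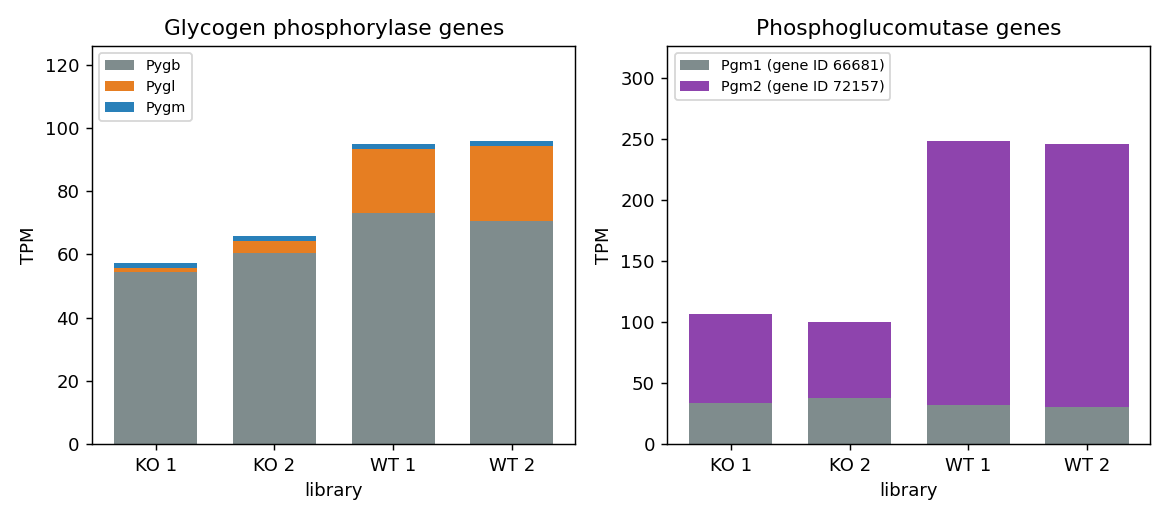
Deposited TPM (level per transcript length, linear axes from 0) of the 3 glycogen phosphorylase genes and of the 2 phosphoglucomutase genes, stacked for each library. In KO 1 and KO 2 the Pygl segment shrinks to 2.05% and 5.34% of its stack and the Pgm2 segment to 68.6% and 62.1% of its own, against 21.1% and 24.8% for Pygl and 87.2% and 87.8% for Pgm2 in WT 1 and WT 2.

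Stbd1 (chromosome 5, 92603051 to 92606579), whose protein holds glycogen at membranes and links it to autophagy, was the least expressed of the 8. Its counts were 6 in KO 1 and 7 in KO 2, against 23 in WT 1 and 39 in WT 2, or 0.290 and 0.348 CPM in KO against 1.18 and 2.04 in WT. The KO libraries were alike and the WT libraries were not. Stbd1 changed by -2.31 ± 0.50 on the log2 scale (SE; adjusted p = 0.0403, edgeR), and its summed WT counts were 5.03 times those of KO after scaling, with a counting interval from 2.74 to 9.98. It passed the filter on low counts through the WT libraries alone, so a gene at its KO level in both genotypes would not have been tested. The call was lost without WT 1 (adjusted p = 0.0963) and without WT 2 (0.401), in DESeq2 (0.0545) and in all 3 limma fits on TPM (adjusted p from 0.0548 to 0.0846). Limma gave a change as small as -0.89 on log2(TPM + 1), a scale that understates the change of low genes.

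**Figure D3:**
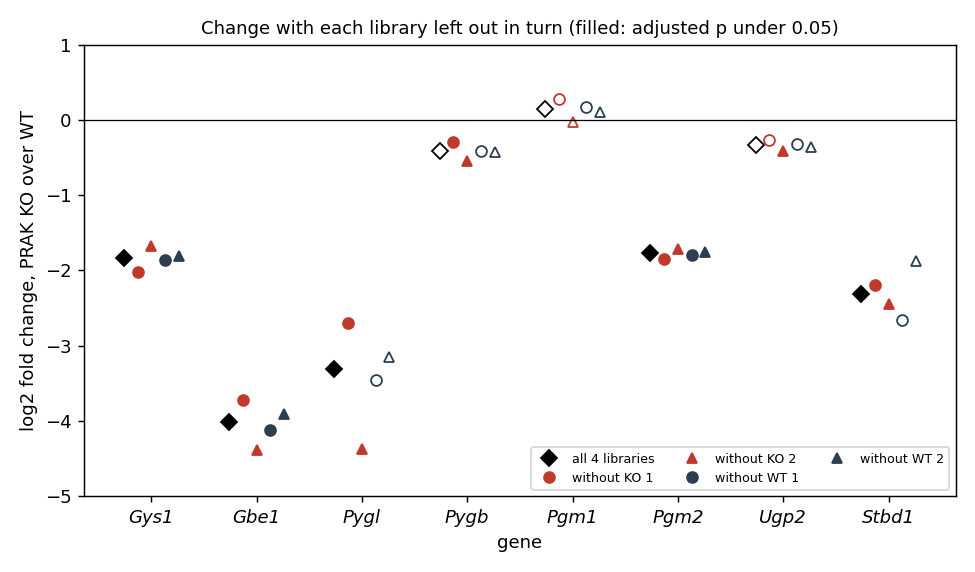
Log2 fold change (KO over WT) of each gene with all 4 libraries (diamonds) and with each library left out in turn; filled symbols have an adjusted p under 0.05 in edgeR. Gys1, Gbe1 and Pgm2 stay filled throughout, Pygl and Stbd1 are open without either WT library, and Pgm1 is open and close to 0 in every setting.

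Between the 2 KO mice, 6 of the 8 genes were higher in KO 2 and 2, Gys1 and Pgm2, were higher in KO 1. The gap was 3.20-fold for Pygl and 1.58-fold for Gbe1. For the other 6 genes it was between 1.10-fold and 1.27-fold.

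The order of levels per length also changed. In KO cells the mean TPM ran from Pgm2 (67.9 ± 7.71) through Pygb (57.6 ± 4.29), Pgm1 (35.8 ± 3.25), Ugp2 (35.5 ± 0.905) and Gys1 (33.5 ± 7.10) to Gbe1 (6.12 ± 1.68), Pygl (2.34 ± 1.65) and Stbd1 (0.315 ± 0.0212; SD, n = 2 each). Pgm1, Ugp2 and Gys1 could not be ordered there, since their libraries overlapped. In WT cells it ran from Pgm2 (216 ± 0.750) through Gys1 (111 ± 0.509), Gbe1 (92.6 ± 7.52), Pygb (71.8 ± 1.93), Ugp2 (42.0 ± 1.80), Pgm1 (30.9 ± 1.17) and Pygl (21.9 ± 2.67) to Stbd1 (1.47 ± 0.523), with no overlap between neighbours. Gys1 and Gbe1 thus stood above Pygb in WT and below it in KO. The ratio of synthase to phosphorylase, Gys1 over the 3 phosphorylase genes in TPM, was 0.674 in KO 1 and 0.433 in KO 2, against 1.17 in WT 1 and 1.16 in WT 2. All 8 genes together summed to 241 TPM in KO 1 and 237 in KO 2, against 584 in WT 1 and 592 in WT 2.

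The other genes of the pathway were taken from 5 lists of 46 genes, of which 41 were tested; 11 fell, 1 rose and 29 did not pass, with a median log2 fold change of -0.30, against 8.23% lower, 5.14% higher and a median of 0.02 over all genes tested. Those shares are also the ones to set beside the counts of each list below. Without KO 2 more of the 41 genes fell, as did more of all genes tested. Of those that fell in the main fit, Ppp1r3c, Ppp1r3g and Epm2a passed the filter on low counts through the WT libraries alone. The first list holds glycogenin, the liver synthase and the subunits that bring protein phosphatase 1 to glycogen and thereby favour its synthesis. Of its 7 genes tested 3 fell and 0 rose, all 3 of them such subunits. Ppp1r3b, the most abundant of them, had 44.4 CPM in KO 1 and 83.9 in KO 2, against 387 in WT 1 and 391 in WT 2 (-2.60 ± 0.31, adjusted p = 0.00914, edgeR). Ppp1r3c, which encodes the subunit called protein targeting to glycogen, had 2 and 3 counts in KO against 76 and 82 in WT; the WT counts were 33.4 times those of KO after scaling, with a counting interval from 14.0 to 104. Ppp1r3g had 4 and 3 counts in KO against 59 and 61 in WT, a ratio of 18.1 with an interval from 8.52 to 46.0. Both passed the filter through the WT libraries alone.

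Ppp1r3e (-1.04, adjusted p = 0.0530), Ppp1r3f (-0.72, 0.0561), Ppp1r3d (-0.66, 0.321) and Gyg, the glycogenin gene that primes the chain (-0.23, 0.624), did not pass in edgeR. The kinases that inhibit the synthase and the phosphatase that these subunits guide form a list too small to set its count apart from the 13.4% called over all genes. Among the 2 glycogen synthase kinase 3 genes and the 3 catalytic subunits of protein phosphatase 1, edgeR called 0 of 5 and 0 had an unadjusted p under 0.05, with log2 fold changes from -0.38 (Ppp1cc) to 0.11 (Gsk3a).

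Among 11 tested genes of breakdown and phosphorylase kinase 2 fell. Epm2a, which encodes the glycogen phosphatase laforin, had 2 and 6 counts in KO against 78 and 84 in WT, a WT level 21.4 times that of KO with a counting interval from 10.6 to 50.4. Epm2a too passed the filter through WT alone, and its log2 fold change of -4.37 was -5.35 without KO 2 and -3.79 without KO 1. The phosphorylase kinase genes Phka1, Phka2, Phkb and Phkg2 lay between -0.30 and 0.50 and did not pass. Gaa, the lysosomal glucosidase that digests glycogen in lysosomes, had 59.2 and 55.4 CPM in KO against 40.5 and 43.0 in WT (0.46, adjusted p = 0.0579, edgeR).

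Of the glucose phosphate genes, 3 of 8 tested fell and 1 rose. Slc37a4, the transporter that carries glucose 6-phosphate into the endoplasmic reticulum, had 31.3 and 36.3 CPM in KO against 96.3 and 96.4 in WT (-1.51, adjusted p = 0.00415, edgeR). Hk1, a hexokinase, had 363 and 375 CPM in KO against 869.9 and 821 in WT. Gpi1, the glucose 6-phosphate isomerase, had 804 and 916 CPM in KO against 1690.2 and 1921 in WT (-1.07, adjusted p = 0.0177, edgeR), and the call of Gpi1 was lost without WT 1 (adjusted p = 0.0727) or WT 2 (0.153). Hk3, a hexokinase of myeloid cells, rose to 4.02 CPM in KO 1 and 3.63 in KO 2, against 0.256 in WT 1 and 0.784 in WT 2 (2.87, adjusted p = 0.0278, edgeR); it was 2.27 without WT 1 (adjusted p = 0.0791) and 3.86 without WT 2. The summed myeloid markers given above were also higher in both KO libraries than in both WT libraries, although they were higher in KO 2 than in KO 1 and Hk3 was not; their part in this rise was not tested.

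The list of UDP-glucose and galactose genes showed 3 falls among 10 tested. Ugdh, which oxidises UDP-glucose to UDP-glucuronate, had 42.8 and 47.7 CPM in KO against 119 and 125 in WT (-1.43, adjusted p = 0.00415, edgeR). Galk1, the first enzyme of galactose use, had 90.7 and 75.6 CPM in KO against 237 and 229 in WT (-1.49, adjusted p = 0.00500). Ugp2, the member whose enzyme makes UDP-glucose, did not pass.

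**Figure D4:**
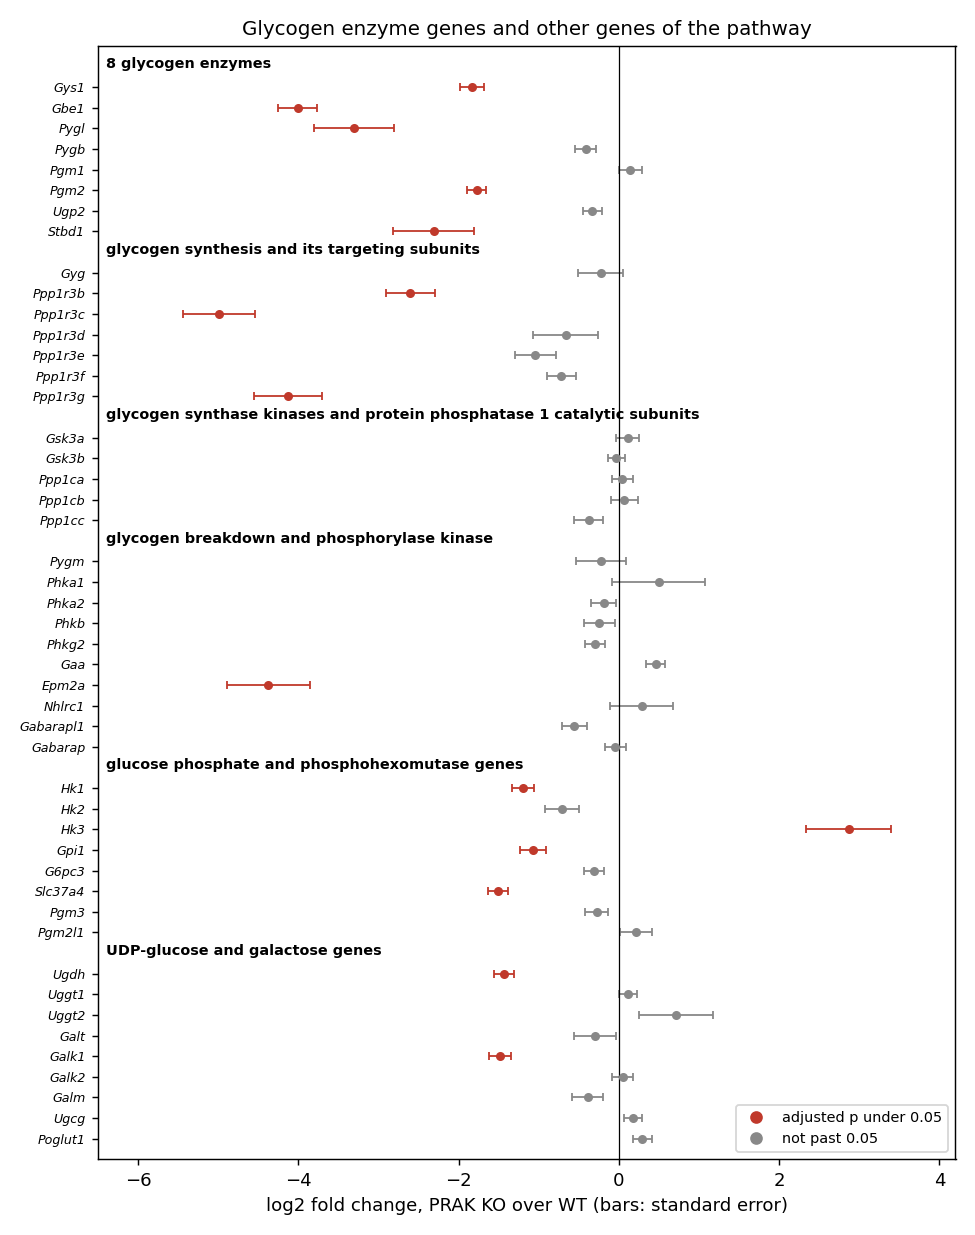
Log2 fold change (KO over WT) with its standard error for the 8 glycogen enzymes and for the genes reported from 5 related lists; red points have an adjusted p under 0.05 in edgeR and grey points do not. Ppp1r3c, Epm2a, Ppp1r3g and Gbe1 lie at or beyond -4.01, the kinase and phosphatase catalytic genes lie near 0, and Hk3 is the red point to the right of 0.

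The genes most like each member were sought among the 9077 genes averaging 10 CPM or more, by the distance between log2 CPM profiles over the 4 libraries after centring each gene. Gys1 and Pgm2 had near neighbours in common: Nfil3 and Ier3 were among the 3 nearest genes of both, and Pgm2 was itself among those of Gys1 (distance 0.159). The nearest to Gbe1 were Smtnl2 (0.198), Stac2 (0.257) and Mboat2 (0.312). For Pygl they were Aldoc, a glycolytic aldolase (0.171), Mcf2l (0.256) and Sgip1 (0.472). With 4 libraries, such a profile holds little beyond the difference between genotypes and that between the 2 KO mice.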

How the data were processed

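RNA sequencing (BGISEQ platform, per the labels) gave 1 library per mouse from 2 PRAK KO and 2 WT mice. The authors deposited RSEM expected counts, not normalised, and FPKM and TPM that the authors scaled to gene length and library size, per the file headers. Per the submitters' processing notes, RSEM 1.2.12, Bowtie2 2.2.5 and HISAT2 2.0.4 were used with build GRCm38.p6. Library kit, strandedness and annotation are not stated in the sources used here. Of the count values, 69.4% were whole; RSEM divides reads between similar genes by a model, so genes with fractional counts carry that uncertainty, here the members Gys1, Pygb and Pgm1, and among the others Ruvbl2, Pygm, Ppp1r3b, Gpi1, Gsk3b, Ppp1ca, Ppp1cc, Phka1, Phkg2 and several markers.

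Expected counts were rounded, filtered with filterByExpr (minimum count 10, minimum total 15; 12680 of 17921 genes kept), scaled with TMM factors and tested with edgeR 4.0.16 (R 4.3.3) by the robust quasi-likelihood test, genotype being the single term. Standard errors were derived from each F statistic. The libraries of each genotype differed by more than sampling noise (chi-square per gene 46.3 for KO, 6.04 for WT). The steps were also run on simulated counts that had the same spread in both genotypes. That run cannot show how the test behaves under the unequal spread seen here. Alternatives used DESeq2 1.42.0 and limma 3.58.1. Counting intervals are exact binomial at 95% and cover counting error only. With 2 mice per genotype, precision is limited by their number as well as by depth.

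The 8 members and the lists were chosen with earlier results of these data known. The text names all 8 members and Mapkapk5, the genes of the lists that passed, except 2 that are counted but not reported here, and others of the lowest p; Ruvbl2, Vps54 and further list members were named after their values were seen. G6pc, on one list, was not analysed here.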

Additional observations from a re-analysis of the deposited data

How the results depend on the processing

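Each of the 8 log2 fold changes was recomputed under 12 alternatives, 96 values in all, of which 82 kept their direction and side of the threshold, 9 lost the call, 4 gained it and 1 turned sign (Pgm1, which ranged from -0.022 without KO 2 to 0.28 without KO 1). Gys1, Gbe1 and Pgm2 kept theirs in all 12. Limma on log2(TPM + 1) without a filter called 3 of the 8 lower in place of 5, and the number ranged from 3 to 7 with 1 library left out. Over all genes, 652 rose and 1043 fell. Scaling by library size alone gave 918 and 864 (51.5% higher in place of 38.5%) and called 2 other pathway genes higher in place of 1. DESeq2 gave 988 higher genes, and limma without a filter 179 higher and 330 lower. With 1 library left out the counts ranged from 209 to 2881 higher and from 450 to 3118 lower, and in the other pathway genes from 0 to 4 higher and from 10 to 21 lower. The lower limits came from leaving out a WT library and the upper ones from leaving out a KO library; the cause was not tested. In these fits the lone library of a genotype is assumed to vary like the other group's. Limma without a filter also lost the calls of Gpi1 (adjusted p = 0.0564), Pygl (0.0591) and Mapkapk5 (0.0585).

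The mouse numbers recur in both genotypes, but nothing in the labels pairs the animals; deviations of KO 1 and WT 1 from their group means correlated at 0.17 over genes, with only 2 numbers. A fit with the number as a replicate block called 1338 genes higher and 1597 lower, 2 other pathway genes higher, and 6 of the 8 members lower, Pygb (adjusted p = 0.0415) being added. With 2 mice per genotype and few counts, the sizes of the changes of Stbd1, Ppp1r3c, Ppp1r3g and Epm2a are uncertain (SE from 0.43 to 0.52). The standard errors of Pygl (0.50) and Hk3 (0.53) were similarly wide.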
